A study of Mus musculus with 16 samples.

Results

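The cells described here are CD8+ cells sorted from MC38 tumors of Aire-/- and Aire+/+ mice given an isotype control antibody, with 1 single-cell RNA library for each genotype. A cell barcode was kept when it held at least 1 unique molecular identifier (UMI, a tag that marks 1 captured RNA molecule) of Cd8a or Cd8b1 and at least 1 of Cd3e, Cd3d or Cd3g. It was left out when it held more than 1 UMI of the macrophage complement genes C1qa, C1qb and C1qc together or any UMI of Siglech, a gene of plasmacytoid dendritic cells. This gate kept 1706 of 1860 Aire-/- barcodes and 2481 of 2688 Aire+/+ barcodes, or 4187 of the 37609 barcodes in the 16 libraries of the series.

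Both groups were female C57BL/6 mice aged 8 weeks, littermates that differed in the Aire alleles. Whether they also differed elsewhere in the genome was not tested. MC38, a colon tumor line of C57BL/6 origin, was implanted under the skin. The isotype antibody, clone 2A3, was injected in 5 doses of 5 mg/kg, the first on day 0 and the last on day 14, and tumors were harvested on day 19. The tumors of 4 to 6 mice were pooled for each condition, so differences between mice cannot be seen in these libraries. The other libraries used below are 6 further pairs of genotypes that went through the same gate, from CD45+ or CD8+ sorts of tumors or spleens, with isotype or anti-PD1 antibody on the same schedule, and the CD45+ sort of isotype tumors. The comparison asks how tumor CD8+ cells differ when Aire is missing and no checkpoint is blocked.

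Aire is a transcription regulator of the thymus. Deletion of developing T cells, or their turn into regulatory T cells, follows when they bind a self protein strongly. Aire widens the range of such proteins, since medullary epithelial cells use it to show those of other tissues. Without Aire, some self-reactive T cells reach the periphery. CD8+ T cells kill target cells with granzymes and perforin, and in tumors they carry inhibitory receptors such as PD-1 after long exposure to antigen.

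Aire itself had 1 UMI in the gated Aire-/- cells and 2 in the Aire+/+ cells. That is too few to check the genotype labels, and T cells are not a main site of Aire expression. The gated Aire-/- cells held 20212937 UMIs in all, with a median of 10035 UMIs and 2623.5 genes per cell. The Aire+/+ cells held 32127498 UMIs, with medians of 10994 and 2783. The median share of mitochondrial UMIs was 1.72% and 2.09%. The 2 libraries had 7 barcodes in common, and each shared between 2 and 18 with any other library of the series. Every interval given below is a 95% interval for counting error alone, and with 1 library on each side there is no measure of the spread between mice.

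Since cells were kept by their Cd8 and Cd3 UMIs, the levels of these genes do not test the label of the sort. The median cell held 34 UMIs of the Cd8 genes in Aire-/- and 31 in Aire+/+, and 50 and 47 UMIs of the Cd3 genes. Cd8a stood at 1564 CPM (counts of a gene scaled to the same total of UMIs in every library) in Aire-/- and 1357 in Aire+/+, and Thy1, a surface protein of T cells, at 1872 and 1921. Of the 8 markers of CD8+ T cells, 0 were 1.5-fold apart, with a median log2 ratio of 0.20 that the gate genes helped to set. Cd4 had 22 and 40 UMIs, or 1.09 and 1.25 CPM. Of the barcodes removed, 24 and 25 lacked a Cd8 UMI, 54 and 134 lacked a Cd3 UMI, 106 and 54 had too many C1q UMIs, and 33 and 118 had a Siglech UMI, so the removed barcodes differed in make-up. Just inside the limits, 7 and 5 kept cells had exactly 1 Cd8 UMI, 2 and 2 had exactly 1 Cd3 UMI, and 158 and 109 had exactly 1 C1q UMI.

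Most genes were close between the genotypes. Of 14801 genes with any UMI, 11442 had at least 20 UMIs over both libraries and were counted. Their median log2 ratio of Aire-/- over Aire+/+ was -0.03, and 91.8% of them lay within 1.5-fold. Of the counted genes, 105 were at least 2-fold higher in Aire-/- (0.918%) and 197 were at least 2-fold lower (1.72%). At 1.5-fold, 347 were higher (3.03%) and 591 lower (5.17%), and these are the background shares against which the gene lists are read. Shallow counts made up much of this, since among the 9887 genes with at least 100 UMIs only 28 were 2-fold higher and 41 were 2-fold lower.

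**Figure D1:**
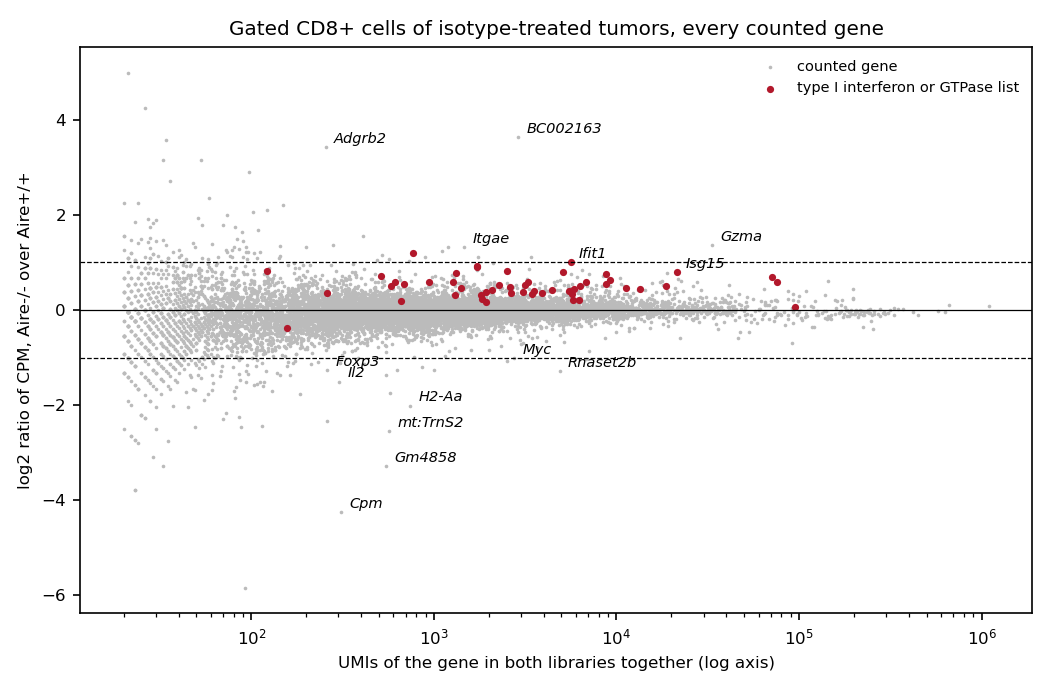
Every counted gene by its UMIs in both libraries together (log axis) and its log2 ratio of CPM, Aire-/- over Aire+/+. Dashed lines mark 2-fold, and red points are the type I interferon and GTPase lists, nearly all of which sit above 0.

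Of the lists of biology, that of the type I interferon response had the most genes at least 1.5-fold higher. Interferons bind receptors that signal through JAK kinases and STAT factors, and the STAT complexes switch on many antiviral genes. Of 35 counted genes of the type I interferon list, 12 were at least 1.5-fold higher in Aire-/- and 0 were lower, and the list had a median log2 ratio of 0.50. Together the list took up 9122 CPM in Aire-/- cells and 6575 CPM in Aire+/+ cells. For 34 of the 35 genes the counting interval lay above 0, and the exception was Ifi44, with 51 and 105 UMIs. Of the 12, Oas2, Oasl2, Phf11b and Ly6c2 were under 1.5-fold in at least 1 alternative analysis, with lowest log2 ratios of 0.54, 0.43, 0.55 and 0.48.

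Within that list, 4 of the Ifit genes, whose proteins bind foreign RNA, were among the furthest apart, while Ifit2 was under 1.5-fold. Ifit1 stood at 156 CPM in Aire-/- and 77.0 CPM in Aire+/+, a log2 ratio of 1.01 (0.94 to 1.09). Ifit3 stood at 222 and 132 CPM, a log2 ratio of 0.75 (0.69 to 0.81). Ifit1bl1 and Ifit3b, close relatives of both, had log2 ratios of 0.92 and 0.90. All 4 lie in a cluster on chromosome 19, with Ifit3 at chr19:34583119-34588982 and Ifit1 at chr19:34640889-34650009 in GRCm38. Isg15, a ubiquitin-like protein that is attached to other proteins, stood at 555 and 321 CPM, a log2 ratio of 0.79 (0.75 to 0.83). Rsad2, which encodes the antiviral enzyme viperin, stood at 65.8 and 37.0 CPM, a log2 ratio of 0.83 (0.72 to 0.94). Mx1, an antiviral GTPase, stood at 60.9 and 43.3 CPM and was under 1.5-fold, with a log2 ratio of 0.49. The most abundant member, Ifi27l2a, hardly differed, with 1872 and 1784 CPM and a log2 ratio of 0.07.

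The interferon-inducible GTPases, which attack the vacuoles of microbes and respond mostly to interferon gamma, showed the same direction. Of 16 counted members, 7 were at least 1.5-fold higher in Aire-/- and 0 were lower, with a median of 0.48. Gbp10 stood at 22.6 CPM in Aire-/- and 9.84 in Aire+/+, a log2 ratio of 1.20 (0.99 to 1.41). Igtp stood at 132 and 76.1 CPM, a log2 ratio of 0.79 (0.71 to 0.87). Ifi47, the most abundant, stood at 225 and 145 CPM, a log2 ratio of 0.63 (0.57 to 0.69). Irgm2, Iigp1, Tgtp1 and Gbp2 were the other members past 1.5-fold, with log2 ratios from 0.59 to 0.72. Of these 7, Ifi47, Iigp1, Tgtp1 and Gbp2 were under 1.5-fold in at least 1 alternative analysis, with lowest log2 ratios of 0.58, 0.16, 0.51 and 0.49. Gvin1 had 0 UMIs in both libraries, which allows up to 3 counts in each.

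Of other lists downstream of interferon, only the Ifitm list had more than 1 gene past 1.5-fold. Of the 4 counted Ifitm genes, membrane proteins that block virus entry, 2 were at least 1.5-fold higher, and the median was 0.48. Ifitm1 was abundant, at 3483 CPM in Aire-/- and 2274 in Aire+/+, with a log2 ratio of 0.61 (0.60 to 0.63), and Ifitm3 stood at 535 and 339 CPM, a log2 ratio of 0.66. With thinned cells Ifitm1 was at 0.56, under 1.5-fold. Of 18 genes of the JAK-STAT list 1 was at least 1.5-fold higher and 0 were lower, with a median of 0.18, and the most abundant, Stat3, stood at 399 and 362 CPM. Socs1, a feedback inhibitor of the same pathway, had a log2 ratio of 0.42. Of 17 counted genes of MHC class I display and the immunoproteasome, 0 were 1.5-fold apart and the median was 0.14, with H2-K1 at 4191 and 3543 CPM. Ifng, the interferon gamma gene itself, stood at 702 CPM in Aire-/- and 732 CPM in Aire+/+, a log2 ratio of -0.06. A few cells weigh on that value, since 5 cells held 21.7% of its UMIs in Aire-/- and 7.55% in Aire+/+, and it was -0.22 with thinned cells and -0.28 without dividing cells.

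**Figure D2:**
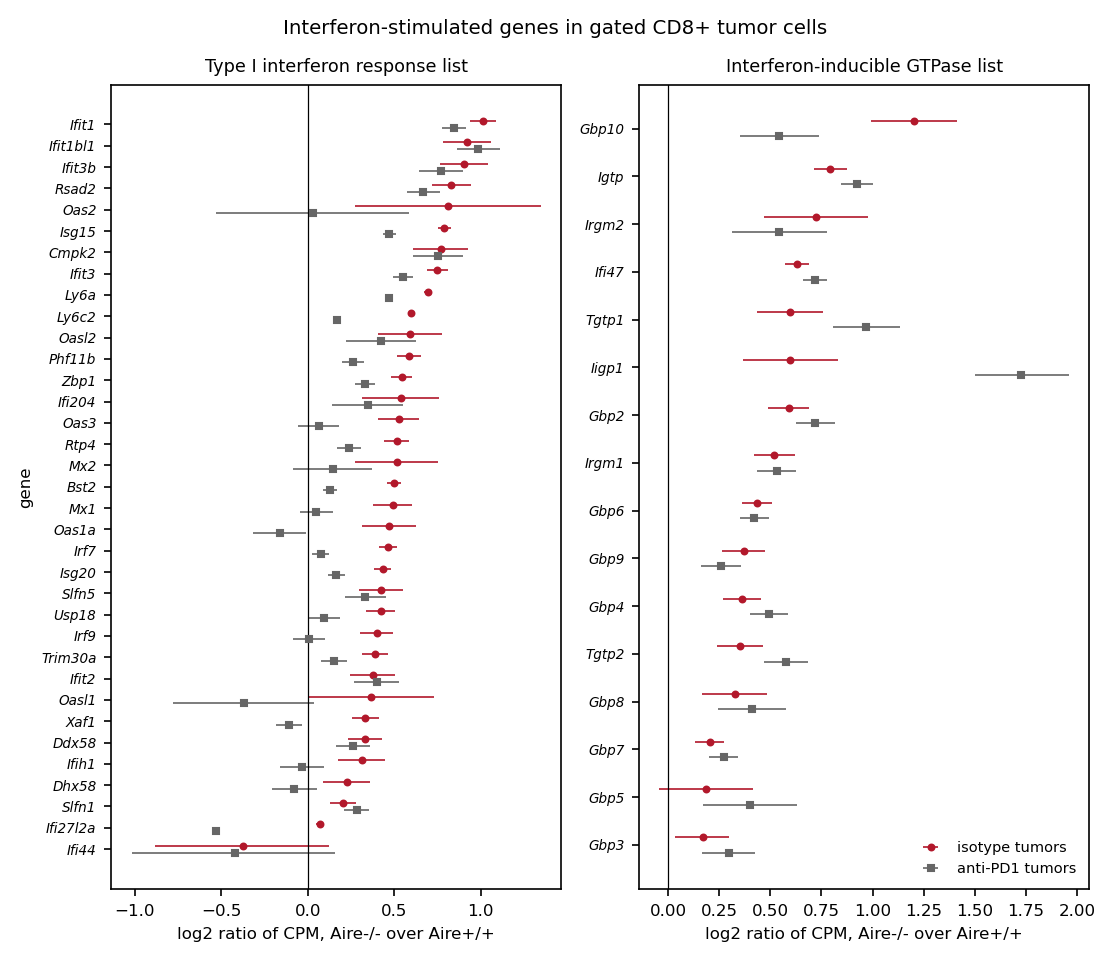
Log2 ratio of CPM, Aire-/- over Aire+/+, for each counted gene of the type I interferon list (left) and the GTPase list (right) in the gated CD8+ cells of isotype tumors (red circles) and anti-PD1 tumors (grey squares). Bars are 95% intervals for counting error, and the isotype points lie above 0 for all genes but Ifi44.

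For the type I interferon list, the difference was spread over the cells. With every cell thinned to 2000 UMIs, the median Aire-/- cell held 15 UMIs of the type I interferon list and the median Aire+/+ cell held 10. The cells at the 10th percentile held 3 and 2 UMIs, and those at the 90th held 46 and 33. So low, middle and high cells all stood higher in Aire-/-. Without the 3 most abundant genes of the list, the means were 9.10 and 6.08 UMIs. For the GTPase list the means were 2.77 and 1.95 UMIs and the medians 2 and 1. Its 10th percentiles were 0 and 0 and its 90th were 7 and 5, so its low cells did not differ.

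In the other libraries, the 2 interferon lists did not differ in step. In the CD8+ cells of anti-PD1 tumors, 5 of 35 genes of the type I list were at least 1.5-fold higher in Aire-/- and the median was 0.17, while 5 of 16 GTPases were higher and their median was 0.54. In gated cells of the CD45+ sort of isotype tumors, with 203 and 148 cells, both medians were 0.13, with 0 of 34 type I genes higher and 3 lower and 3 of 16 GTPases higher and 1 lower. In splenic CD8+ cells, the type I list had medians of 0.03 with isotype and -0.09 with anti-PD1, and the GTPases had 0.32 and 0.39. Ifit1, for example, had log2 ratios of 0.85 in anti-PD1 tumors, 0.34 in the CD45+ sort, and -0.09 and -0.40 in the spleens. In the spleens, 1 of 34 type I genes was 1.5-fold higher and 0 lower with isotype, and 1 of 33 was higher and 4 lower with anti-PD1. Over all genes, 481 of 11325 were 1.5-fold higher and 377 lower in the anti-PD1 tumor pair, 722 and 651 of 8716 in the CD45+ pair, 680 and 317 of 10762 in isotype spleens and 695 and 469 of 10795 in anti-PD1 spleens. Whether the pairs differ was not tested.

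Interferon genes are not restricted to T cells. In macrophages from the CD45+ sort of isotype tumors, 84.5% of Aire-/- and 75.9% of Aire+/+ barcodes held Isg15 at 2000 UMIs. Macrophage genes were also higher in the gated Aire-/- cells, where 6 of 13 were at least 1.5-fold higher and 0 lower, with a median of 0.51. Under a stricter gate that allowed no UMI of C1q, Lyz2, Cd4, Foxp3 or Cd79a, the median of the type I list was 0.49 and that of the GTPases 0.48. Ifit1 had a log2 ratio of 0.98 and Isg15 one of 0.75 under that gate. The part of macrophage RNA in these differences was not tested.

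The promoters of both interferon lists were searched for the letters of the interferon-stimulated response element, GAAANNGAAA on either strand. The window was the 250 bases before the gene start. Both lists were drawn up as genes that respond to interferon. A high share of the letters in them can follow from that choice and says nothing of the genotypes. These letters stood before 936 of 27025 genes in the RefSeq table (3.46%) and before 288 of 8703 counted genes that have an entry there (3.31%). In the type I list, 12 of 25 genes with an entry held them (48%). Of its genes at least 1.5-fold higher, 7 of 10 did, and of the remaining genes 5 of 15 did. In the GTPase list, 9 of 10 held them, with Ifi47 as the exception, which makes 4 of 5 genes at least 1.5-fold higher and 5 of 5 of the rest. The stretches below, 60 bases each from GRCm38.p6, are shown for some of the genes described above, with the letters in capitals and each read along the strand of its gene. Ifit1bl1, Phf11b and Tgtp1 also held the letters and are not shown. The stretch of Isg15 (chr4:156200865-156200924, minus strand) holds 3 overlapping matches. Those of Ifit1 (chr19:34640764-34640823, plus strand), Ifit3 (chr19:34583367-34583426, plus strand) and Ifit3b (chr19:34607763-34607822, plus strand) hold 2 matches each, and those of Rsad2 (chr12:26456553-26456612, minus strand), Igtp (chr11:58199482-58199541, plus strand), Irgm2 (chr11:58214873-58214932, plus strand) and Gbp2 (chr3:142620564-142620623, plus strand) hold 1 each. A capital run that begins with TTTC is the same motif read on the other strand.
Isg15: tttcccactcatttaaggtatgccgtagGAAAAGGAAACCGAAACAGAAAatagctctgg
Ifit1: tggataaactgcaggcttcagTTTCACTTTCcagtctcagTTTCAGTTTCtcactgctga
Ifit3: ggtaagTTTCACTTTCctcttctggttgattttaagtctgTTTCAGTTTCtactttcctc
Ifit3b: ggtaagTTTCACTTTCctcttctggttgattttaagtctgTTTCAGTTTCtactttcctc
Rsad2: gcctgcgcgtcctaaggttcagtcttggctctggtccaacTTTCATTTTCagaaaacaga
Igtp: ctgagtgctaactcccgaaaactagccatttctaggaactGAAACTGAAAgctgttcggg
Irgm2: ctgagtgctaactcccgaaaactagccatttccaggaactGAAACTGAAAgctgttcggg
Gbp2: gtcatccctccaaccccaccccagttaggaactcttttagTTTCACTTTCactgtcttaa

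The stretches of Ifit3 and Ifit3b are the same letters, and for both the start in that table lies inside the span of the gene. A match describes the letters of a window and is not evidence of binding. Mx1, Oas2, Gbp10, Iigp1 and Ly6a have no entry in the promoter table.

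Among killing genes, granzyme A stood apart from the rest. Gzma encodes a granule protease, and it stood at 1020.1 CPM in Aire-/- and 397 CPM in Aire+/+, a log2 ratio of 1.36 (1.33 to 1.40), or 2.57-fold. It was the only one of 18 genes of the cytotoxic granule list past 1.5-fold, and the median of that list was 0.15. Gzmb, the most abundant member of the list, stood at 4211 and 3529 CPM, and Prf1, which encodes perforin, at 584 and 599 CPM. Gzmc stood at 2478 and 2784 CPM and Gzmk at 72.7 and 60.9 CPM. Serpinb9, the inhibitor that protects a killer cell from its own granzyme B, stood at 373 and 253 CPM, a log2 ratio of 0.56.

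Gzma was concentrated in a minority of cells on both sides. It was found in 429 of 1706 Aire-/- cells and 451 of 2481 Aire+/+ cells. At 2000 UMIs per cell the share was 18.6% (25.1% unthinned) in Aire-/- and 12.3% (18.2%) in Aire+/+. The macrophage barcodes of the CD45+ sort of isotype tumors, which should lack it, held it in 0.388% and 0.270% after the same thinning. Unthinned, at median depths of 14095.5 and 14600 UMIs, they held it in 2.52% and 0.629%. Cells with Gzma also held more of it in Aire-/-, with a mean of 48.1 UMIs against 28.3. More cells with a UMI and more UMIs in each both went into the total.

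Itgae encodes CD103, an integrin that binds E-cadherin and marks T cells that stay in tissues. It stood at 44.4 CPM in Aire-/- and 17.8 CPM in Aire+/+, a log2 ratio of 1.32 (1.16 to 1.47). At equal depth it was found in 8.44% (16.4% unthinned) of Aire-/- cells and 4.19% (9.03%) of Aire+/+ cells, and in 0 of the thinned macrophage barcodes on either side. In anti-PD1 tumors the log2 ratio was 1.52, in the CD45+ sort 0.13, and in the spleens 0.08 and 0.39. The other 11 counted genes of the tissue residency list were within 1.5-fold, and its median was 0.03. Cxcr6, a chemokine receptor of resident cells, was level at 802 and 791 CPM. Rgs1, a regulator of chemokine signals and the most abundant of the list, was lower, at 679 and 1016 CPM. Klf2, a factor that keeps T cells in circulation, stood at 317 and 398 CPM, a log2 ratio of -0.33, and Cd69, which holds cells in tissue, at 458 and 531 CPM. The list thus held differences in both directions.

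Genes of T cell exhaustion differed little. Of 12 inhibitory receptors 0 were 1.5-fold apart, with a median of 0.13. Pdcd1, which encodes PD-1, stood at 801 CPM in Aire-/- and 669 in Aire+/+, Lag3 at 909 and 754, and the most abundant, Klrc1, at 1048 and 932. Of 10 costimulatory receptors 0 were 1.5-fold apart, with a median of 0.10, and Tnfrsf9, the receptor 4-1BB, stood at 1370 and 1266 CPM. Of 15 counted transcription factors of effector and exhausted cells 0 were 1.5-fold apart, and the median was near 0. Tox, a factor of exhausted cells, stood at 23.4 and 34.7 CPM, a log2 ratio of -0.57, and Bhlhe40, the most abundant, at 932 and 914.

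The list of naive and stem-like genes had 1 member higher and 1 lower of 17. Its median was 0.09, and -0.15 without dividing cells. Id3, an inhibitor of E proteins found in memory precursors, stood at 12.9 and 8.44 CPM. Cxcr5, a homing receptor of follicles, stood at 1.83 and 3.58 CPM, from 37 and 115 UMIs. Over the alternative analyses, the log2 ratio of Id3 ran from 0.33 to 1.24 and that of Cxcr5 from -1.13 to -0.31. Both were thus under 1.5-fold in at least 1 of them. Ccr7, the most abundant of the list, stood at 465 and 428 CPM, and the stem-like factor Tcf7 at 21.97 and 22.69. The genotypes were thus close in the main genes of this list.

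Cytokine genes were mixed. Of 15 counted genes of effector cytokines and chemokines, 0 were at least 1.5-fold higher in Aire-/- and 2 were lower, with a median of -0.06 and sums of 6634 and 6303 CPM. Il2, the growth factor of T cells, stood at 2.72 CPM in Aire-/- and 7.72 CPM in Aire+/+, a log2 ratio of -1.50 (-1.95 to -1.08). Csf2, which encodes GM-CSF, stood at 31.2 and 52.5 CPM, a log2 ratio of -0.75. Il2 came from few cells, 12 and 16, and the 5 cells with most of it held 85.5% and 90.7% of its UMIs. Under the stricter gate its log2 ratio was -2.51. Csf2 was found in 93 and 227 cells, or 5.45% and 9.15% (2.34% and 3.26% at equal depth). The log2 ratio of Csf2 was -0.57 under the stricter gate, which is under 1.5-fold. Ccl5, the most abundant chemokine, stood higher at 1943 and 1473 CPM, a log2 ratio of 0.40. Tnf was at 42.0 and 46.1 CPM and Fasl at 213 and 190. Of 26 chemokine and cytokine receptors 0 were 1.5-fold apart, with a median of 0.12. Il2rg, the chain shared by several cytokine receptors, led that list with 1182 and 1006 CPM, and Cxcr3, a receptor for interferon-induced chemokines, stood at 43.2 and 33.8.

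Most early genes of T cell receptor stimulation were close. Of 28 immediate early genes, 1 was at least 1.5-fold higher and 1 lower, near the shares over all genes, with a median of 0.09. Egr1 stood at 119 CPM in Aire-/- and 77.1 in Aire+/+, a log2 ratio of 0.62 (0.54 to 0.70). Under the stricter gate Egr1 was at 0.55, under 1.5-fold, and 5 cells held 16.1% and 7.19% of its UMIs. Nr4a1, a reporter of receptor signals, stood at 324 and 241 CPM, a log2 ratio of 0.43. Myc, which drives growth and metabolism, stood at 32.3 and 65.4 CPM, a log2 ratio of -1.02 (-1.15 to -0.89), and was found in 14.5% and 28.1% of unthinned cells. At 2000 UMIs those shares were 4.92% and 9.43%. The most abundant gene of the list, Junb, was close, at 2099 and 1982 CPM. In anti-PD1 tumors Myc had a log2 ratio of -0.10 and Egr1 one of 0.69. Of 22 genes of proximal receptor signalling 0 were 1.5-fold apart, with a median of 0.08 and Lck at 677 and 611 CPM.

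Genes of sugar breakdown and low oxygen were slightly lower nearly throughout. Of 27 genes, 25 had a log2 ratio below 0, 3 were at least 1.5-fold lower and 1 was higher, and the median was -0.15. Most counted genes also lay below 0, since the median over all of them was -0.03. Gapdh, the most abundant of the list, stood at 3660 CPM in Aire-/- and 4674 in Aire+/+, a log2 ratio of -0.35. Ankrd37, a target of hypoxia-inducible factor, stood at 25.7 and 45.8 CPM, a log2 ratio of -0.83. Vegfa, another such target, had 44 and 132 UMIs, and Adm had 13 and 31. Ankrd37 and Vegfa depended on the analysis, as Ankrd37 was at -0.40 with thinned cells and Vegfa at 0.69 with no gate. Hif1a, the factor itself, went the other way at 545 and 357 CPM, a log2 ratio of 0.61 (0.57 to 0.65). In anti-PD1 tumors the median of the list was -0.13 and the log2 ratio of Hif1a -0.07, and in the spleens the medians were -0.07 with isotype and 0.22 with anti-PD1.

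The list of heat shock genes was higher in part. Of 16 chaperone genes 3 were at least 1.5-fold higher and 0 lower, with a median of 0.22. Hspa1a, an inducible HSP70 gene, stood at 32.9 CPM in Aire-/- and 13.9 in Aire+/+, a log2 ratio of 1.24 (1.07 to 1.42), and Hspa1b, its near copy, at 13.7 and 6.63. Both were rare, with Hspa1a in 81 and 77 cells, and the 5 richest cells held 30.2% and 43.1% of its UMIs. Hspa8, the constitutive member and the most abundant, stood at 2516 and 2220 CPM. Heat shock genes also respond to tissue handling, whose part in this was not tested.

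Few genes of growth were 1.5-fold apart. Of 40 cell cycle genes 0 were, with a median of -0.04 (-0.30 without the cells in the top 5% of UMIs, 0.04 without dividing cells) and Tubb5 at 799 and 807 CPM, and Mki67 was found at equal depth in 5.51% and 7.26% of cells. Of 73 nuclear genes of oxidative phosphorylation 0 were 1.5-fold apart, and the median of -0.03 matched that of all genes, with Cox8a at 1079 and 1101 CPM. Of 83 counted cytosolic ribosomal protein genes 1 was 1.5-fold lower, with a median of -0.08. It was Rps27, at 324 and 487 CPM, while the most abundant, Rpl41, stood at 7842 and 8118. Of 21 counted histone genes 3 were at least 1.5-fold lower and 0 higher, with a median of -0.13 that came to -0.64 without the cells in the top 5% of UMIs. Among them, Hist1h2bc stood at 28.7 and 60.2 CPM, a log2 ratio of -1.07, and Hist1h1c at 58.3 and 91.0. Hist1h1e, the most abundant, stood at 121 and 132. The set of survival and apoptosis genes had 1 of 19 members past 1.5-fold, Bid, a protein that triggers mitochondrial death, at 6.04 and 9.59 CPM, with a median of -0.08 and Bcl2a1b at 514 and 497. The list of ferritin, lectin and cytoskeleton genes had 1 of 19, the nuclear envelope gene Lmna, at 143 and 85.4 CPM, a log2 ratio of 0.75, with a median of 0.09. Tmsb10, the most abundant there, stood at 13275.4 and 12366.7 CPM.

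Receptors shared with natural killer cells were mixed. Of 17 counted killer cell lectin receptor genes, 1 was at least 1.5-fold higher and 5 were lower, with a median of -0.10. The higher one, Klra3, stood at 16.03 and 9.90 CPM. Klra1 and Klrb1c were lower, from 31 and 81 UMIs and from 99 and 253 UMIs. These calls depended on the analysis. Over the alternatives, the lowest log2 ratio of Klra3 was 0.54. That of Klra1 ran from -1.37 to -0.30 and that of Klrb1c from -1.55 to -0.43. Each was thus under 1.5-fold in at least 1 alternative, and the median of the list ran from -0.17 to 0.04. The abundant members were close, as Klrd1 stood at 1106 and 911 CPM. Klra genes resemble each other closely, so UMIs could be split among copies in the counting.

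Among the genes with the largest differences and at least 100 UMIs, those that lead were not T cell effector genes. Of the higher ones, BC002163 stood at 127 CPM in Aire-/- and 10.2 CPM in Aire+/+, a log2 ratio of 3.63 (3.47 to 3.80). Adgrb2, an adhesion receptor of the G-protein-coupled family, stood at 11.03 and 1.03 CPM, a log2 ratio of 3.43. Tagap1, the cytoskeletal scaffold gene Erc1 and Cass4, an adhesion scaffold, had log2 ratios of 2.10, 1.55 and 1.37. The chemokine genes Ccl7 and Ccl2, better known from myeloid cells, had 111 and 38 UMIs and 74 and 28 UMIs. The factor Ovol2, Fxyd1, Calca, Ubxn11, Tgfbi, Hspa1a, Itgae and Gzma complete the 15, with log2 ratios from 1.22 to 1.69.

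On the lower side, Cpm, a membrane carboxypeptidase, stood at 0.495 CPM in Aire-/- and 9.37 CPM in Aire+/+, a log2 ratio of -4.24 (-5.32 to -3.34). Gm4858 stood at 1.63 and 15.9 CPM, a log2 ratio of -3.29, and was found in 12 and 117 cells. Scin, an actin-severing protein, stood at 1.43 and 7.22 CPM. The class II genes H2-Aa and H2-Eb1 and the mitochondrial tRNA rows TrnS2 and TrnN were also among the 15 lowest. Tmem158, C2cd4b, Firre, Igsf3, Pcsk4, Tlr12, 9430020K01Rik and Il2 complete them, with log2 ratios from -2.43 to -1.50.

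Only 5 of 6884 genes were apart by a log2 ratio of at least 0.58 in the same direction in all 8 pairs of libraries, among genes with at least 20 UMIs in each pair. The higher ones were BC002163, Gzma and Ubxn11, and the lower ones were Cpm and Rnaset2b. No library is in more than 1 pair, but the pairs repeat the same genotypes, and animals may be shared between sorts. BC002163 ranged from 1.35 to 3.63 over the pairs and Cpm from -4.24 to -1.87. Gzma ranged from 1.15 to 6.49, with the highest value from 470 and 5 UMIs in the isotype spleens of the CD45+ sort. Ubxn11 ranged from 0.91 to 1.76 and Rnaset2b from -2.35 to -1.11. Their shared direction follows from how they were chosen.

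BC002163 differed in how many cells held it. Of Aire-/- cells 68.2% had a UMI, and of Aire+/+ cells 12.1%, with 21.1% and 1.89% at 2000 UMIs. All of its UMIs came from the row on chromosome 16, and its row on chromosome 4 had 0 in both libraries. Ndufs5, which shares 246 of 295 sequence stretches of 25 bases with it, stood at 83.5 and 102 CPM, and whether UMIs could be split between the 2 in the counting was not tested. Rnaset2b, which encodes a lysosomal RNase, stood at 49.8 and 121 CPM, a log2 ratio of -1.28, and was found in 32.6% and 72.5% of cells, or 8.85% and 21.6% at 2000 UMIs. Its relative Rnaset2a had 0 UMIs in both. Rnaset2b lies at chr17:6978860-6998193, beside Tagap1 at chr17:6954965-6961565, which went the other way, with 89 and 33 UMIs. Tagap, on the same chromosome, had 1994 and 4083 UMIs. Scaled to the totals of the 2 libraries it was lower in Aire-/- by less than 1.5-fold. Cpm lies at chr10:117629500-117687352, on the chromosome of Aire (chr10:78030022-78043610) but far from it. Of 15 counted genes near Aire 1 was 1.5-fold higher, Tspear, with 13 and 12 UMIs, and the median was -0.05, with Itgb2 at 396 and 347 CPM.

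**Figure D3:**
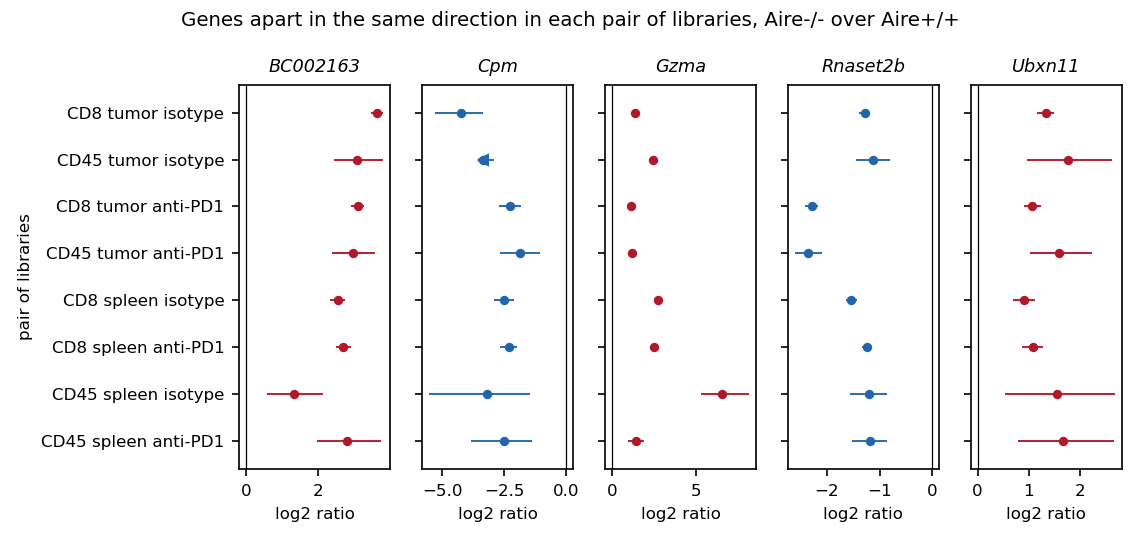
Log2 ratio of CPM, Aire-/- over Aire+/+, for the 5 genes apart in the same direction in all 8 pairs of libraries, with 95% intervals for counting error. The triangle marks Cpm where Aire-/- had 0 UMIs, set to 3 counts and open toward lower values, and the points of each gene lie on 1 side of 0.

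The genes of other cell types were few but not evenly spread. Of 13 counted macrophage and monocyte genes, 6 were at least 1.5-fold higher in Aire-/- and 0 were lower, with a median of 0.51 and a sum of 745 CPM in Aire-/- and 653 CPM in Aire+/+. Cst3, the most abundant by both libraries together, stood at 235 and 261 CPM, and Spp1, which activated T cells also express, at 256 and 180. The defining genes had few UMIs, with Csf1r at 4 and 6 UMIs, Adgre1 at 5 and 1, and Lyz2 at 47 and 43. The genes C1qa, C1qb and C1qc, limited by the gate, had 52 and 34, 61 and 42, and 45 and 33 UMIs. The median of the macrophage list was 0.34 under the stricter gate, 0.13 with thinned cells and 0.42 in anti-PD1 tumors. In gated cells of the CD45+ sort of isotype tumors it was -1.01, with 2 of 14 genes higher and 10 lower. Under the stricter gate Ccl2, Ccl7 and Tgfbi had log2 ratios of 2.23, 2.31 and 1.17, and with thinned cells 0.86, 2.18 and 1.05, and the part of RNA from other cells beyond that was not tested.

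Dendritic cell genes were mixed, with 4 of 7 counted below 0 and 3 above. At 1.5-fold, 0 were higher and 3 were lower, with a median of -0.58 and a sum of 639 CPM in Aire-/- and 702 CPM in Aire+/+, most of it from Ccr7. Clec9a and Cd209a had 0 UMIs on both sides. The lower ones were the class II genes H2-Aa, with 4.95 and 19.95 CPM, H2-Eb1, with 4.50 and 15.1 CPM, and H2-Ab1, with 13.8 and 26.9 CPM, and Cd74, the invariant chain, stood at 127 and 190.5. With no gate, H2-Aa, H2-Eb1 and H2-Ab1 had log2 ratios of -0.55, -0.40 and -0.44, all under 1.5-fold. A few cells held much of some class II transcripts, as 5 cells held 44.0% of H2-Aa UMIs in Aire-/- and 88.9% in Aire+/+, but 12.9% and 31.1% of those of H2-Ab1. The share of cells with any UMI was larger in Aire-/- for H2-Aa, at 3.22% against 1.98%, and for H2-Eb1, at 2.75% against 1.69%, though at equal depth H2-Eb1 was close, at 0.469% and 0.484%. It was smaller for H2-Ab1, at 9.67% against 13.1% (3.05% and 3.22% at equal depth), and for Cd74, at 28.8% against 31.8% (13.8% and 15.3%). Cells with 20 or more UMIs of them numbered 26 in Aire-/- and 57 in Aire+/+, and these held 32.2% and 51.9% of all class II UMIs, at median depths of 12012 and 18932 UMIs. The deeper cells among them stood in Aire+/+, and whether these are doublets with a dendritic or B cell was not tested.

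Of 8 markers of CD4+ and regulatory T cells 1 was lower, with a median of -0.09, and the sums were 997 and 1026 CPM, led by Ctla4 at 514 and 484. The lower one was Foxp3, the master factor of regulatory T cells, with 54 UMIs in 15 cells of Aire-/- and 206 UMIs in 36 cells of Aire+/+, a log2 ratio of -1.26 (-1.72 to -0.82). Of 5 counted natural killer markers 2 were higher and 1 lower, with a median of 0.51 and sums of 1125 and 485 CPM, nearly all from Gzma. The defining receptor Ncr1 had 1 and 1 UMI. B cell markers came to 50 and 97 UMIs, led by Cd79b, with Ms4a1 and Pax5 at 0, although Ighm had 472 and 578. Neutrophil markers came to 12 and 7 UMIs, all of Mmp9, with S100a8, S100a9 and 4 others at 0. Erythroid markers came to 0 and 1 UMI, of Hbb-bs. Epithelial or tumor cell markers came to 52 and 82 UMIs, led by Epcam, with Krt8, Krt19 and Krt7 at 0. Fibroblast and endothelial markers came to 70 and 114 UMIs, led by Pecam1, with Cdh5 at 0. Of 10 markers of gamma-delta and innate-like T cells only 5 have a row, and those of the T cell receptor have none. Their sum thus cannot show how many such cells there were. The markers with a row came to 38 and 9 UMIs, of which Il17a made up 30 and 4, each within 1 cell, with Sox13 at 0. Their part in the differences above was not tested. The sex-specific genes fit the label of female mice, with Ddx3y, Eif2s3y, Kdm5d and Uty at 0 and Xist at 189.9 and 246 CPM, and the 2 counted genes of that list had a median of -0.51.

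Shares of cells at equal depth differed for several genes that macrophages hardly hold. Pdcd1 was found in 65.8% of Aire-/- and 59.0% of Aire+/+ cells (83.0% and 80.2% unthinned), against 0 and 0.0899% of thinned macrophage barcodes. Ifng was found in fewer Aire-/- cells, 33.8% and 40.6% (62.7% and 69.4%), against 0.194% and 0.0899%. So was Xcl1, the chemokine for cross-presenting dendritic cells, in 13.7% and 18.5% (23.8% and 31.3%), against 0 and 0.0899%. Cells with both Pdcd1 and Tcf7, the pairing of stem-like exhausted cells, made up 0.996% and 1.13% (5.10% and 5.76%). Cxcr6 was level at 66.2% and 65.6%. Ifit3 was found in 24.0% and 17.1% of cells (41.6% and 31.8%) and Isg15 in 41.3% and 28.8% (71.0% and 59.4%), but thinned macrophage barcodes held Ifit3 in 48.4% and 35.1% and Isg15 in 84.5% and 75.9%. Klf2 and Havcr2 were also found in a larger share of macrophage barcodes than of T cells. For these 4 genes, RNA from macrophages and expression by T cells cannot be told apart from the share alone.

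**Figure D4:**
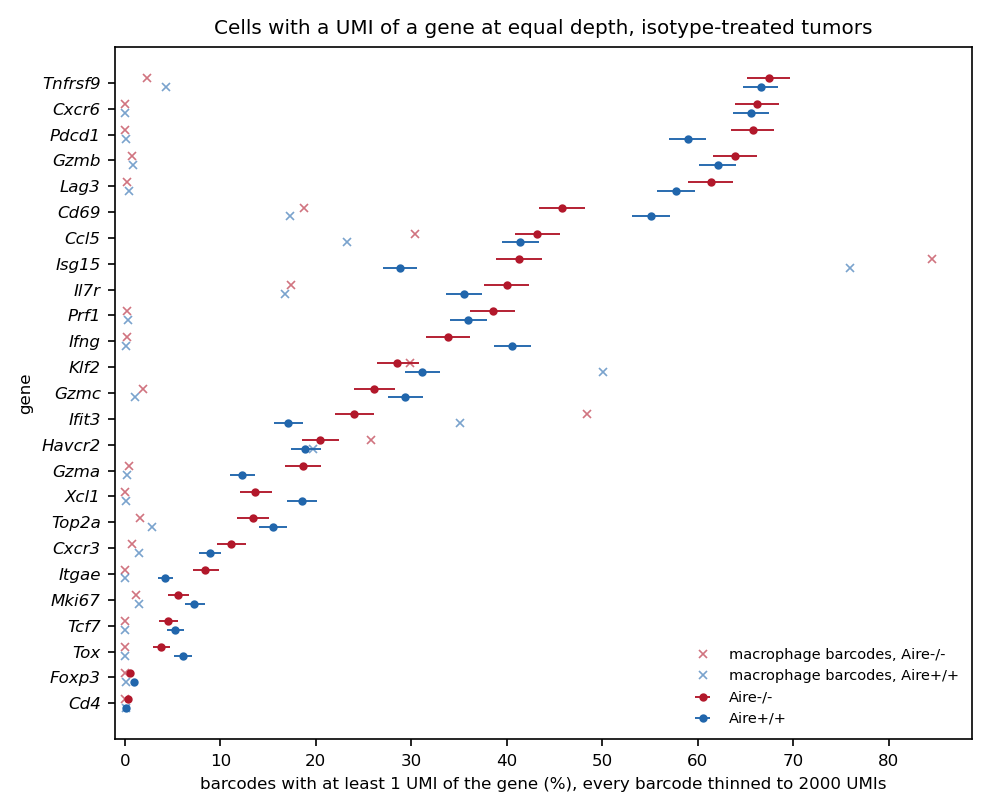
Share of gated CD8+ cells with at least 1 UMI of each gene after every barcode was thinned to 2000 UMIs, in Aire-/- (red) and Aire+/+ (blue), with exact 95% intervals. Crosses show the same share in macrophage barcodes of the CD45+ sort of isotype tumors, and Gzma and Itgae are higher in Aire-/- cells while their crosses lie near 0.

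Each genotype is seen here in 1 library of pooled tumors, so a difference between mice, tumors or library preparations cannot be told apart from one between genotypes. Barcodes can hold RNA from other cells, and transcripts of macrophages and of class II cells were present on both sides in unequal amounts. The cells were not split into classes, so a shift in the mix of CD8+ cells and a shift within each cell cannot be told apart. Protein and killing were not measured.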

How the data were processed

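Sorted cells of tumors and spleens were run on a Chromium instrument with a kit for the 3′ end of RNA, per the labels. The study's section on T cell receptor libraries names a kit for the opposite end, also for RNA libraries of sorted cells. The authors deposited a count of UMIs per gene and barcode for each of 16 libraries, made with Cell Ranger, as raw whole numbers for the cells that program called. The submitters' processing notes name GRCm38. The tables hold 25127 rows: 25050 named genes, 37 mitochondrial rows, 13 with an Ensembl identifier alone and 27 vector or transgene sequences. Vector rows were left out and rows that share a symbol were summed, which left 24469 symbols. There are no rows for T cell receptor gene segments, so that list had 0 members.

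UMIs of a gene were summed over the gated cells and divided by all UMIs of those cells to give counts per 1e6 UMIs (CPM). A sum carries an exact Poisson interval, a share of cells an exact Clopper-Pearson interval and a ratio a conditional exact interval, all at 95% and for counting error only. With 1 library per group no test was run, and a gene was counted by fold alone when it had at least 20 UMIs over both libraries. A library with 0 UMIs of a gene was given 3 counts. The gated cells held 20212937 UMIs in Aire-/- and 32127498 in Aire+/+, so the interval of Aire-/- over Aire+/+ is narrow for a gene such as Isg15 (0.75 to 0.83) and wide for one such as Cpm (-5.32 to -3.34). For cell shares, each barcode was thinned to 2000 UMIs at random (seed 1), and no gated tumor CD8+ cell was shallower. Macrophage barcodes, the background for shares, had at least 10 C1q UMIs and 0 of Cd3. The study's own cell filter (at least 200 genes, at most 20% mitochondrial UMIs) would have removed 1 and 4 gated cells and was run as an alternative. Doublets were not removed, and leaving out the cells in the top 5% of UMIs stands in for such a step.

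Named genes are the 15 largest differences in each direction among genes with at least 100 UMIs, the most abundant member and up to 6 members past 1.5-fold of each list, Aire and the gate genes, genes that the study names for CD8+ cells, and genes apart in all 8 pairs. Further members of the lists, and a few genes under 100 UMIs, are named where a count or a group calls for them and were chosen after their values were seen. A few genes that this rule names have no values in the text, and list counts still cover them. The members and lists were chosen with earlier results of these data known. The lists are 27 of biology and 11 of cell type markers. Positions and promoter sequences come from the RefSeq annotation of GRCm38.p6, matched by symbol, and transcript sequences from GENCODE. The alternatives tried were the study's filter, a stricter gate, no gate, trimmed mean of M-values scaling, a total without ribosomal protein and mitochondrial UMIs, thinning, no cells of the top 5%, other count minimums, and no dividing cells. The calculations were tested on simulated data and run in Python 3.11.15 with numpy 2.4.6, scipy 1.17.1, pandas 2.3.3 and matplotlib 3.10.9.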

Additional observations from a re-analysis of the deposited data

Results flagged for a closer look

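The named genes were compared with the CD8+ cells of anti-PD1 tumors and of isotype spleens, where both pairs had at least 100 UMIs and a log2 ratio of at least 0.25 in size. In 4 of them the direction between genotypes was opposite, with counting intervals on opposite sides of 0. With 1 library a group, none of these differences was tested.

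C2cd4b was lower in Aire-/- with isotype, with 21 and 108 UMIs and a log2 ratio of -1.69, and higher in anti-PD1 tumors, with 99 and 65 UMIs and a log2 ratio of 0.81. Hspa1a was higher with isotype, at a log2 ratio of 1.24, and lower in anti-PD1 tumors, at -0.31, from 605 and 865 UMIs. Pdcd1 had a log2 ratio of 0.26 with isotype and -0.28 in anti-PD1 tumors, from 16925 and 23651 UMIs. Nr4a1 had a log2 ratio of 0.43 in isotype tumors and -0.62 in isotype spleens, from 128 and 246 UMIs.

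The vector row EC18, which the comparisons left out, held 8 UMIs in the gated Aire+/+ cells and 2 in the Aire-/- cells. The other vector rows held at most 1 UMI in either library.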

How the results depend on the processing

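The number of genes at least 2-fold apart depended on the gate and on the minimum count. With no gate, 319 genes were higher and 341 lower, in place of 105 and 197, and the cause was not tested. With a minimum of 100 UMIs there were 28 and 41, since fewer genes are counted, and with a minimum of 1 UMI there were 316 and 475, since shallow genes enter. Under the other alternatives the counts stayed between 83 and 115 higher and between 159 and 216 lower. The scalings moved the median of all genes by at most 0.03.

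For 123 named genes, 998 of 1225 alternative values stayed within the counting interval of the reported one. In all 20 changed sign, and 3 of these belong to genes reported past 1.5-fold. With no gate, Tyrobp went to -0.65 and Vegfa to 0.69. Without dividing cells, Il17a went to -0.0138. The cause was not tested. Of 72 genes past 1.5-fold, 47 stayed past it in the same direction under every alternative that gave a value. Those that did not include Ifi47, Iigp1, Tgtp1, Ifitm1, Oas2, Egr1, Hif1a, Ankrd37, Vegfa, Csf2, Cxcr5, Id3, Bid, Rps27, Klra1, Klra3, Klrb1c, Il17a, H2-Aa, H2-Ab1, H2-Eb1, Tyrobp, C1qc and Calca. Foxp3 gave no value under the stricter gate, which uses it.

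For 35 lists, 19 of 345 alternative medians changed sign, and 5 of these belong to lists whose reported median is at least 0.1 in size. The NK cell list went to -0.31 with no gate, the B cell list to 0.54 with thinned cells, the epithelial list to 0.00828 without dividing cells, and the median log2 ratio of killer cell lectin receptors to 0.00583 with every barcode thinned to 2000 UMIs and to 0.0351 without the top 5%. The cause was not tested. The type I interferon median stayed between 0.43 and 0.53 and the GTPase median between 0.41 and 0.51. No paired analysis was possible because this comparison has 1 library per group, and a fit over all 8 pairs of the series was not run, so depth limits only the counting error, and the spread between mice is unknown.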

Other observations

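Mitochondrial tRNA rows were lower as a group, and most mitochondrial messenger rows were lower too, but by much less. Of 20 counted tRNA rows 13 were at least 1.5-fold lower in Aire-/- and 0 were higher, with a median of -0.92. TrnS2 had 55 and 511 UMIs, a log2 ratio of -2.55, TrnV had 130 and 498, and TrnA had 207 and 791. Of the 13 protein-coding mitochondrial genes 1 was past 1.5-fold, ATP6, at 1267 and 2040.1 CPM, and their median was -0.09. In other pairs TrnS2 had log2 ratios of -2.60 in anti-PD1 tumors, 1.32 in isotype spleens and -1.61 in anti-PD1 spleens. The 2 ribosomal RNA rows had a median of -0.30. These tRNAs are cut from long transcripts, and how a library captures them can vary. The part of library preparation was not tested.

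The genes that follow have under 100 UMIs and were picked after their values were seen, so they stand for no group. Cxcl2 had 80 UMIs in Aire-/- and 17 in Aire+/+, a log2 ratio of 2.90. Cxcl9 had 29 and 7, and 5 cells held 48.3% of those in Aire-/-. In the other direction Il3, a T cell cytokine close to Csf2 on chromosome 11, had 9 and 79 UMIs, a log2 ratio of -2.47, and Igfbp2 had 1 and 91, a log2 ratio of -5.84 (-11.16 to -3.32).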
